A study of Mus musculus with 30 samples.

Results

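The genes described here are those of fatty acid synthesis and desaturation in mouse quadriceps muscle. Of 10 genes listed by name, 8 had an entry in the expression table (Srebf1, Acly, Me1, Fasn, Elovl6, Scd1, Scd2 and Thrsp), out of 16475 entries tested in all. The expression of the carboxylase genes Acaca and Acacb was not analysed here. The genes were listed by name and function, with earlier results of these data known. Their values were not used in choosing which entries were kept.

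RNA of the quadriceps muscle was measured on arrays, 1 male mouse per array, with 10 mice in each of 3 groups. The strain is spelled C56BL/6J in the sample labels and C57BL/6J in the study's design text. HF d56 mice had eaten a high fat diet for 56 days and were 20 weeks old. LF d56 mice had eaten a low fat diet for the same 56 days and were also 20 weeks old. LF d0 mice were killed at 12 weeks of age. All 3 groups had been put on the low fat diet at 9 weeks of age for a run-in of 3 weeks, after which mice were killed or randomly assigned to a diet. The study set out to ask how obesity and insulin resistance brought on by a high fat diet affect the transcriptome of skeletal muscle. Whole muscle was used, so the RNA came from muscle fibres together with the fat, vessel, nerve and blood cells in the piece.

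In the cytosol, ATP citrate lyase (Acly) makes acetyl-CoA from citrate, and malic enzyme (Me1) supplies NADPH. Acetyl-CoA carboxylase then makes malonyl-CoA, which fatty acid synthase (Fasn) builds into palmitate. Elovl6 lengthens palmitate, and the stearoyl-CoA desaturases Scd1 and Scd2 place a double bond in saturated fatty acids, giving oleate and palmitoleate. Srebf1 encodes the transcription factor SREBP-1, which insulin activates in liver and which drives many of these genes. Thrsp encodes a small nuclear and cytosolic protein, induced by thyroid hormone and carbohydrate in liver and fat, that promotes fatty acid synthesis. In mice, most fatty acid synthesis takes place in liver and adipose tissue, and skeletal muscle makes little. Fat cells that lie between muscle fibres therefore can add transcripts of these genes to whole muscle RNA.

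The promoters of Fasn, Thrsp and Acly are shown because these 3 genes are among those that varied together from array to array, as described further on. Each line gives 250 bases upstream of the transcription start, 5′ to 3′ on the gene's strand, from RefSeq (build GRCm38.p6). Capitals mark the CCAAT box, written CCAAT or, on the other strand, ATTGG.
Fasn, chr11:120824548-120824797, minus strand: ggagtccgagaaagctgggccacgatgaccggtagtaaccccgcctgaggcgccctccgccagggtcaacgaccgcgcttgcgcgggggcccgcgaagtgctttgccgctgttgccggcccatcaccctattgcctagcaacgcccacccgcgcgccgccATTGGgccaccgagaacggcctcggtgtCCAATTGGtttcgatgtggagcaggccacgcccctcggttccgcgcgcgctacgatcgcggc
Thrsp, chr7:97417551-97417800, minus strand: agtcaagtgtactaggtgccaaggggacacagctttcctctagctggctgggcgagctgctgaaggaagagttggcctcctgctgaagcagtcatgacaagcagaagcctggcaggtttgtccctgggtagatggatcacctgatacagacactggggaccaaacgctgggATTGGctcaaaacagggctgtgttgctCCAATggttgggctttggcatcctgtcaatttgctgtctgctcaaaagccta
Acly, chr11:100528001-100528250, minus strand: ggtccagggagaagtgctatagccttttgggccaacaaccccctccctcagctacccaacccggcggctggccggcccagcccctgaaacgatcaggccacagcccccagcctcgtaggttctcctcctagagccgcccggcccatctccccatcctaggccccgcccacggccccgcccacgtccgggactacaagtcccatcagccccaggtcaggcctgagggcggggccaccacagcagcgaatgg
The Fasn window held 3 CCAAT boxes, of which 2 overlap on opposite strands, and the Thrsp window held 2. The Acly window held none in these letters, nor did that of Elovl6, which varied with these genes too and is not shown. RefSeq gave 11 windows for 8 of the 10 listed genes. These are not the 8 measured genes: Acaca and Acacb are among them, and Scd1 and Scd2 had no window. Srebf1 had 3 of the windows and Me1 had 2. Of the 11, 6 held a CCAAT box, that of Acacb among them, against 33.8% of all 32851 mouse windows of this length. The sterol element to which SREBP binds, searched as TCACNCCAC on both strands, was in 0 of the 11 windows and in 1.05% of all windows. The E-box CACGTG, whose letters are the same on both strands, was in 0 of the 11 windows and in 6.02% of all windows. These are matches of letters in short windows and say nothing about binding.

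Values are intensities, the brightness of a gene's probe set on a linear scale, and differences are given as log2 of the intensity. A level near 20 or below is dim, and a level was not compared between genes because probe sets differ. Of the 8 genes, 7 were above 20 in 5 or more arrays. Elovl6 did so on 0 of 30 arrays, so its values lie near background. The 10 muscle markers, among them Ckm and Acta1, were bright in every array, with summed intensities of 177510 to 188625.8 in HF d56, 180490.5 to 190664.8 in LF d56 and 176999.2 to 187897 in LF d0. The arrays were also parted into 2 technical sets, of 21 and 9 arrays (7 and 3 per group). The cut was placed at the widest gap in how the 5′ probes of spiked control transcripts compared with their 3′ probes. The sample labels name no such sets. Between these sets 3811 entries differed (23.1% of those tested), and 0 of the 8 genes did. Without adjustment, 1 of the 8, Me1, had a p below 0.05, as had 32.7% of all entries.

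Scd2 and Srebf1 were the genes of the set that passed the test. In HF d56 relative to LF d0, groups that differ in age and in diet, Scd2 and Srebf1 fell to 0.549-fold and 0.732-fold. In this comparison 1.59% of all entries passed. In LF d56 relative to LF d0, Scd2 fell to 0.650-fold and the other 7 did not pass (0.85% of all entries passed). Between the diets at equal age, 0 of the 8 genes passed (0.0243% of all entries did), and 7 of the 8 had a negative difference. The largest of these was that of Fasn, at 0.505-fold in HF d56 relative to LF d56.

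The test was limma's moderated test over all entries, with p-values adjusted by the Benjamini-Hochberg method and a threshold of 0.05. Between the diets, 4 of 16475 entries passed, and 0 (0%) were lower. With no adjustment, 4 of the 8 genes had a p below 0.05, all lower, where 2.11% of all entries did so. They were Fasn, Acly, Thrsp and Elovl6, of which Elovl6 was near background. These 4 varied together from array to array, so they do not count as 4 independent results. The median log2 difference of the 8 genes was -0.28, against 0.0029 for all entries. Without LF d56 replicate 6, 3 of the 8 (Fasn, Acly and Elovl6) had such a p, where 2.09% of all entries did. The median of the 8 was then -0.18. Over time on the low fat diet (LF d56 versus LF d0), 140 entries passed, of which 103 were lower (0.625%), and 1 of the 8 genes was among these. On the high fat diet (HF d56 versus LF d0), 262 entries passed, of which 133 were lower (0.807%), and 2 of the 8 genes were among these. The median log2 difference of the 8 genes was 0.08 in LF d56 versus LF d0 (-0.07 without LF d56 replicate 6) and -0.28 in HF d56 versus LF d0. Both comparisons use the LF d0 arrays, so they are not independent of each other.

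**Figure D1:**
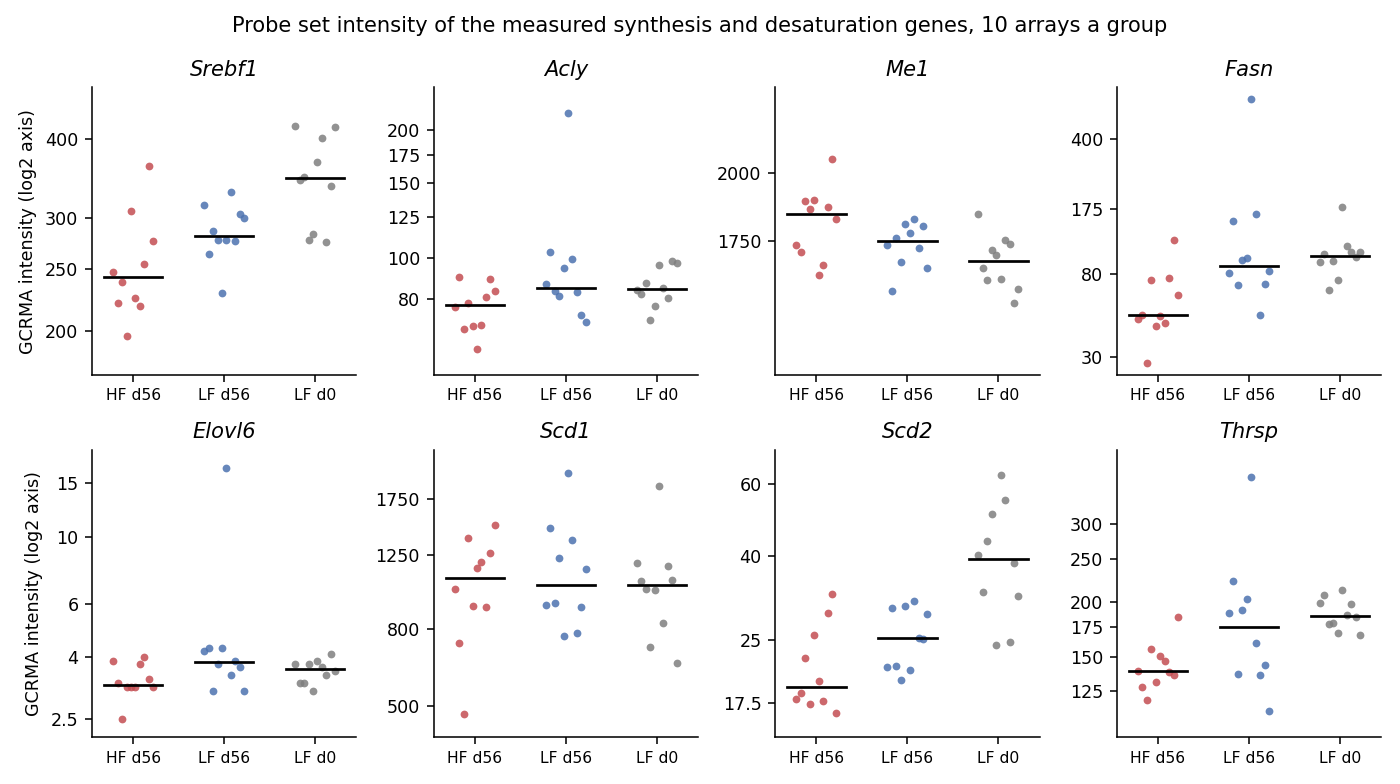
Intensity of the 8 measured genes in each array, on a log2 axis, for HF d56, LF d56 and LF d0 (10 arrays each, points) with the group median (bar). The highest Scd2 value in HF d56 is 32.3 against a median of 39.3 in LF d0, and 1 LF d56 array stands far above the others in Fasn (642.1) and Elovl6 (16.8).

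Srebf1 (Entrez gene 20787), the regulator of the set, had its lowest levels in the HF d56 muscles. Its intensity was 196.3 at the lowest, 242.95 at the median and 362 at the highest in HF d56. In LF d56 it was 229.1, 282.1 and 330.3, and in LF d0 it was 275.9, 346.8 and 418.6. The groups overlapped, but 7 of 10 HF d56 arrays lay below the lowest LF d0 array. HF d56 was lower than LF d0 by a log2 difference of -0.45 ± 0.10 (SE, limma adjusted p = 0.00692), with 9 of 10 HF d56 arrays below the LF d0 mean. Fewer cells of a type and less RNA per cell cannot be told apart in whole muscle. The difference was -0.43 within the 21 arrays and -0.50 within the 9 arrays, where limma's adjusted p was 0.122 and 0.393. LF d56 differed from LF d0 by -0.27 ± 0.10 (adjusted p = 0.246), with all 10 LF d56 arrays below the LF d0 mean. HF d56 differed from LF d56 by -0.18 ± 0.10 (adjusted p = 0.991), with a 95% interval of -0.38 to 0.01. The entry is for the gene as a whole and does not separate its SREBP-1a and SREBP-1c transcripts.

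Acly (Entrez gene 104112) makes the acetyl-CoA from which fatty acids are built. Its intensity was 60.9, 77.45 and 90.3 (lowest, median, highest) in HF d56. It was 70.5, 85 and 220 in LF d56 and 71.5, 84.35 and 98.4 in LF d0. The groups overlapped, with all 10 HF d56 arrays below the LF d56 mean and 4 of them below the lowest LF d56 array. That mean is raised by LF d56 replicate 6. HF d56 replicates 2 and 9, at 90.3 and 89.4, were above the LF d56 median of 85. The log2 difference of HF d56 from LF d56 was -0.31 ± 0.13 (adjusted p = 0.941), or -0.17 without LF d56 replicate 6, the array at 220, and it was -0.17 ± 0.13 from LF d0 (adjusted p = 0.712).

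Me1 (Entrez gene 17436), the source of NADPH, was the steadiest of the 8 genes and the one with a positive difference in all 3 comparisons. Its intensity was 1638.8, 1845.7 and 2052 in HF d56, 1588.8, 1749.7 and 1827.1 in LF d56, and 1553.3, 1684.15 and 1844.2 in LF d0. The groups overlapped, and the SD of its log2 level within a group was 0.10, 0.06 and 0.07 in that order. HF d56 differed by 0.06 ± 0.04 from LF d56 and by 0.11 ± 0.04 from LF d0, with limma adjusted p of 0.998 and 0.274. In LF d56 the difference from LF d0 was 0.05 ± 0.04 (adjusted p = 0.782).

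Fasn (Entrez gene 14104), the synthase itself, had the widest spread of the 8 genes in both groups at day 56. Its intensity was 27.9, 49.2 and 119.9 in HF d56, against 49.7, 88.85 and 642.1 in LF d56 and 66.4, 99.95 and 178.2 in LF d0. All groups overlapped, yet 6 of 10 HF d56 arrays were below the lowest LF d56 array, and 7 of 10 were below the lowest LF d0 array. The difference of HF d56 from LF d56 was -0.98 ± 0.30 (0.505-fold), which did not pass the adjustment (limma adjusted p = 0.519), with 9 of 10 HF d56 arrays below the LF d56 mean. Without LF d56 replicate 6, the array with 642.1, the difference was -0.70. Within the 21 arrays it was -0.77, and within the 9 arrays -1.48, with adjusted p of 0.969 and 0.993. Relative to LF d0, HF d56 differed by -0.84 ± 0.30 (adjusted p = 0.199). This comparison does not hold LF d56 replicate 6, but the fit shares 1 estimate of spread over all arrays, and with that array left out the same difference had an adjusted p of 0.0306. LF d56 and LF d0 differed by 0.14 ± 0.30 (adjusted p = 0.929), a sign that turned to -0.14 without LF d56 replicate 6.

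Elovl6 (Entrez gene 170439), the elongase of palmitate, was dim on every array. Its intensity was 2.5, 3.25 and 4 in HF d56, 3.1, 3.85 and 16.8 in LF d56, and 3.1, 3.65 and 4.1 in LF d0. The groups overlapped, with 4 LF d56 arrays above the highest HF d56 array and 1 HF d56 array below the lowest LF d56 array. Its differences between groups did not pass the test, and at this brightness their size cannot be read closely. The log2 difference of HF d56 was -0.38 ± 0.18 from LF d56 and -0.11 ± 0.18 from LF d0, with adjusted p of 0.958 and 0.915. The difference from LF d56 was -0.16 without LF d56 replicate 6, the array at 16.8.

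Scd1 (Entrez gene 20249), the main desaturase of fat and liver, did not differ detectably between groups. Its intensity was 476.3, 1086.85 and 1502.3 in HF d56, 766.8, 1040.55 and 2054.3 in LF d56, and 650.5, 1042.6 and 1897.6 in LF d0. The groups overlapped almost wholly, with 8 of 10 HF d56 arrays inside the LF d56 range. HF d56 differed from LF d56 by -0.13 ± 0.19, with a 95% interval of -0.53 to 0.26 (adjusted p = 0.998). Relative to LF d0, the difference was -0.01 ± 0.19, with an interval of -0.41 to 0.38 (adjusted p = 0.991).

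Scd2 (Entrez gene 20250), the desaturase that is prominent in brain and developing tissue, had the lowest p of the set in both comparisons with LF d0. Its intensity was 16.6, 19.15 and 32.3 in HF d56, 19.9, 25.2 and 31 in LF d56, and 24.3, 39.3 and 63.1 in LF d0. The groups overlapped, with 7 of 10 HF d56 arrays below the lowest LF d0 array and 8 of 10 LF d0 arrays above the highest LF d56 array. HF d56 was lower than LF d0 by -0.87 ± 0.15 (limma adjusted p = 0.00111), with 10 of 10 arrays below the LF d0 mean. LF d56 was lower than LF d0 by -0.62 ± 0.15 (adjusted p = 0.0405), also with 10 of 10 arrays below that mean. HF d56 differed from LF d56 by -0.25 ± 0.15 (adjusted p = 0.998), so the diets at equal age were not told apart for this gene.

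The call for Scd2 in LF d56 versus LF d0 was close to the threshold. It was lost (adjusted p of 0.0571 to 0.0870) when any of 12 arrays was left out, namely replicates 1, 3, 4, 6, 8 and 9 of LF d56 and replicates 1, 3, 4, 6, 7 and 9 of LF d0. The difference stayed between -0.69 and -0.54 in all these fits. The HF d56 versus LF d0 call passed without any single array, at -0.94 to -0.79. With the adipocyte score as a covariate and HF d56 replicates 9 and 10 left out, Scd2 there was at -0.90 and Srebf1 at -0.51, and neither passed (adjusted p of 0.103 and 0.110). Within the 21 and the 9 arrays Scd2 differed by -0.73 and -1.18 in HF d56 versus LF d0, and by -0.60 and -0.66 in LF d56 versus LF d0. None of these 4 within-set values passed the adjustment (adjusted p of 0.0600, 0.0910, 0.231 and 0.300).

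Markers of other cell types also fell relative to LF d0. Of all entries, 0.807% passed as lower in HF d56 versus LF d0 and 0.625% in LF d56 versus LF d0. Of 5 fibroblast and tendon markers, 3 fell in HF d56 and in LF d56 relative to LF d0 (Col1a1, Col3a1 and Tnmd). The summed intensity of those 5 ranged from 7321.3 to 10166.2 in HF d56, from 7838.8 to 9893 in LF d56 and from 8452.8 to 13522.3 in LF d0. Of 5 endothelial markers 1 fell in each of those comparisons, the tight junction gene Cldn5, and their sum ranged from 325.3 to 528.6, from 291.7 to 519.5 and from 376.7 to 719.2 in the same groups. With the fibroblast and tendon score (the mean log2 level of its markers) as a covariate, Scd2 differed by -0.95 in HF d56 versus LF d0 (adjusted p = 0.0314) and by -0.72 in LF d56 versus LF d0 (adjusted p = 0.466). With the endothelial score the values were -0.73 (adjusted p = 0.0369) and -0.45 (adjusted p = 0.303). Srebf1 in HF d56 versus LF d0 was -0.40 with the fibroblast and tendon score and -0.36 with the endothelial score, with adjusted p of 0.229 and 0.122. Both scores were taken as covariates after the data had been seen, and both run higher in LF d0, so score and feeding time cannot be told apart in such a fit.

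Thrsp (Entrez gene 21835) was lower in most HF d56 muscles, without passing the test. Its intensity was 119.3, 139 and 184.5 in HF d56, 113, 174.8 and 384.6 in LF d56, and 168.2, 185.8 and 212.9 in LF d0. All 10 HF d56 arrays lay within the LF d56 range, while 9 of 10 lay below the lowest LF d0 array. Relative to LF d0, HF d56 differed by -0.40 ± 0.13 (adjusted p = 0.157), and by -0.32 ± 0.13 from LF d56 (adjusted p = 0.926), or -0.19 without LF d56 replicate 6, the array at 384.6. The SD of its log2 level was 0.17 in HF d56, 0.50 in LF d56 and 0.12 in LF d0. Without LF d56 replicate 6, as for Fasn, the difference from LF d0 passed (adjusted p = 0.0208). LF d56 and LF d0 differed by -0.08 ± 0.13 (adjusted p = 0.902).

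**Figure D2:**
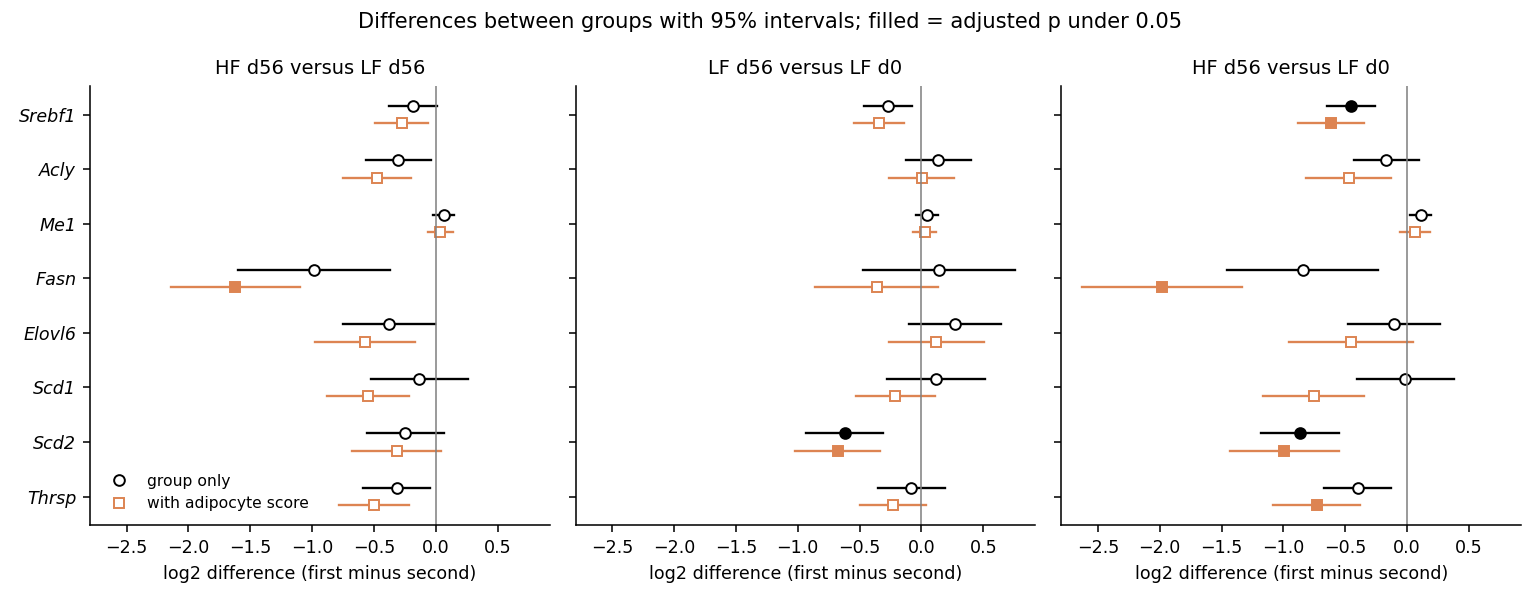
log2 difference of each gene (first named group minus second) with its 95% interval in 3 comparisons, from the fit with group alone (circles) and with the adipocyte score as a covariate (squares). Filled symbols passed an adjusted p of 0.05: Srebf1 and Scd2 in both fits, and Fasn and Thrsp only with the score.

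Fat cells in the muscle were followed with an adipocyte score, the mean log2 level of 6 marker genes (Adipoq, Lep, Retn, Cidec, Slc7a10 and Fabp4), none of which is in the set. The score was 7.20 ± 0.71 in HF d56, 6.59 ± 0.29 in LF d56 and 6.10 ± 0.28 in LF d0 (SD, n = 10 each). The summed intensity of the 6 markers ranged from 6567.2 to 11143.1 in HF d56. It ranged from 6001.7 to 9754.7 in LF d56 and from 5927.1 to 7858.3 in LF d0, and no sum was at 0. Most of each sum was Fabp4, with a mean intensity of 6604.27 in HF d56, 6089.24 in LF d56 and 5790.92 in LF d0. Of the 6 markers 4 rose in HF d56 relative to LF d0, where 0.783% of all entries passed as higher. In the other comparisons 0 of the 6 passed. Fat cell transcripts thus ran higher in HF d56, where Fasn, Acly and Thrsp had their lowest medians.

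Within groups, Scd1 and Fasn followed the adipocyte score. Their slopes were 0.68 ± 0.13 and 1.04 ± 0.20 log2 units per unit of score (limma adjusted p = 0.00572 and 0.00723), among 69 entries with such a slope (0.419%). The Scd1 slope was 0.59 and no longer passed without HF d56 replicate 3 (adjusted p = 0.0984). The Fasn slope passed without any single array and was lowest, at 0.82, without LF d56 replicate 6. The other 6 genes did not pass, with slopes of 0.31 for Elovl6, 0.30 for Thrsp, 0.28 for Acly, 0.15 for Srebf1, 0.11 for Scd2 and 0.04 for Me1. Single arrays moved these slopes: without LF d56 replicate 6 they were 0.12 for Elovl6, 0.20 for Thrsp and 0.16 for Acly. Without HF d56 replicate 9 they were 0.48 for Elovl6, 0.50 for Thrsp, 0.025 for Srebf1, -0.068 for Scd2 and -0.0051 for Me1. For the scores of Schwann cells and of slow fibres, 0 of the 8 genes passed, where 2 entries (0.0121%) and 33 entries (0.2%) did. Without adjustment, 0 and 2 of the 8 had a p below 0.05, the 2 being Scd2 and Me1 with negative slopes on the slow fibre score, while 4.07% of all entries had such a p for the Schwann cell score and 8.35% for the slow fibre score.

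**Figure D3:**
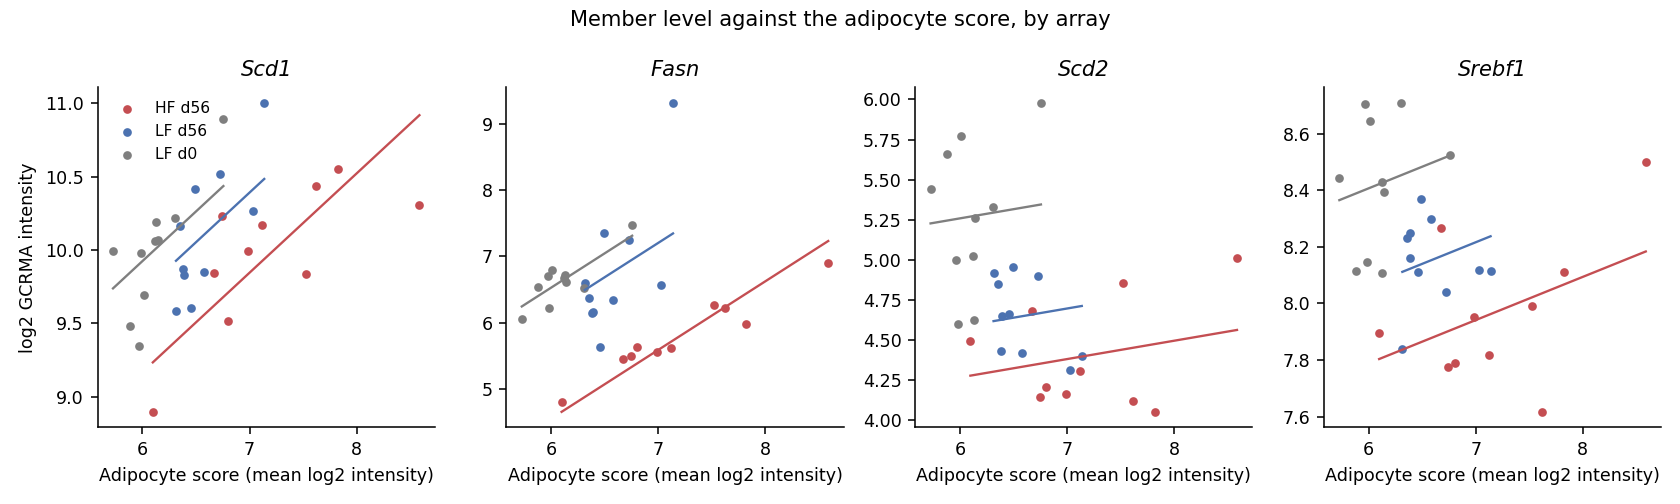
log2 intensity of Scd1, Fasn, Scd2 and Srebf1 in each array against the array's adipocyte score, with lines of the common fitted slope through each group. Fasn rises with the score in all groups and its HF d56 points lie below those of LF d56 and LF d0 at a like score, whereas the Scd2 and Srebf1 lines are nearly flat (slopes 0.11 and 0.15).

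At a given adipocyte score, Fasn was lower in HF d56 than in either low fat group. With the score in the fit, HF d56 differed from LF d56 by -1.62 ± 0.26, or 0.325-fold (limma adjusted p = 0.00466). Only 3 entries passed in that fit (0.0182%), and Fasn was the 1 that was lower (0.00607%). Relative to LF d0, HF d56 differed by -1.98 ± 0.32, or 0.253-fold (adjusted p = 0.00140). Both fits rest on scores that themselves differ between the groups, and the ranges meet only in part: the lowest HF d56 score, 6.10, was close to the mean of LF d0.

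The value for Fasn in HF d56 versus LF d56 was also -1.20 with a brown adipocyte score added, -1.25 without LF d56 replicate 6, -1.63 without HF d56 replicates 9 and 10, and -1.52 with a score of Adipoq, Cidec and Fabp4 alone. Each of these 4 passed, with adjusted p of 0.000873, 0.000679, 0.00516 and 0.00189. These 4 fits were chosen after the data had been seen. Among the other genes in HF d56 versus LF d56, the differences with the score were -0.55 for Scd1, -0.50 for Thrsp, -0.48 for Acly and -0.57 for Elovl6, and none passed (adjusted p of 0.795, 0.590, 0.670 and 0.917). Relative to LF d0, with the score, 58 entries passed in HF d56 (0.352%), 35 of them lower (0.212%). Fasn, Scd2 at -0.99, Srebf1 at -0.62 and Thrsp at -0.73 were among the 35, with adjusted p of 0.0320, 0.0233 and 0.0498 for the last 3. Scd1 at -0.76 was not (adjusted p = 0.106), but with HF d56 replicates 9 and 10 left out it was -0.93 and passed (adjusted p = 0.0284). With the score of Adipoq, Cidec and Fabp4 alone, Scd1 was at -0.84 and passed as well (adjusted p = 0.00861). In LF d56 versus LF d0, 125 entries passed (0.759%), 92 of them lower (0.558%), and Scd2 at -0.68 (adjusted p = 0.0481) was the 1 gene of the 8 among them.

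A single LF d56 muscle, replicate 6, carried much of the upper end of the set. Against the mean of the other 9 arrays of its group, Fasn was 7.14-fold higher there, Elovl6 4.49-fold, Acly 2.57-fold, Thrsp 2.37-fold and Scd1 1.99-fold. Scd2, Srebf1 and Me1 were not raised, at 0.824-fold, 0.971-fold and 1.03-fold. The same muscle had an intensity of 228.5 for Ucp1, the uncoupling protein that defines brown fat, where the highest of the other 29 arrays was 18.4. Cidea, another brown fat gene, was at 204.1, against at most 16.9 elsewhere. The summed level of 3 brown fat markers ranged from 13.7 to 24 in HF d56, from 12.7 to 438.9 in LF d56 and from 12.9 to 15.9 in LF d0. The part of brown fat in the levels of these 5 genes was not tested in that 1 muscle.

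Over all 30 arrays, 4 of the 8 genes had a slope on the brown adipocyte score that passed (Elovl6, Acly, Thrsp and Fasn, at 0.54, 0.36, 0.38 and 0.74), among 8 entries (0.0486%). Without LF d56 replicate 6, 3 entries passed (0.0182%), and Thrsp was the 1 gene of the set among them, with a slope of 0.57 ± 0.10 (adjusted p = 0.0227). The slopes without that array were 0.47 for Fasn, 0.24 for Acly and 0.22 for Elovl6, each with an adjusted p of 0.999899. In those 29 arrays the brown fat markers were dim.

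**Figure D4:**
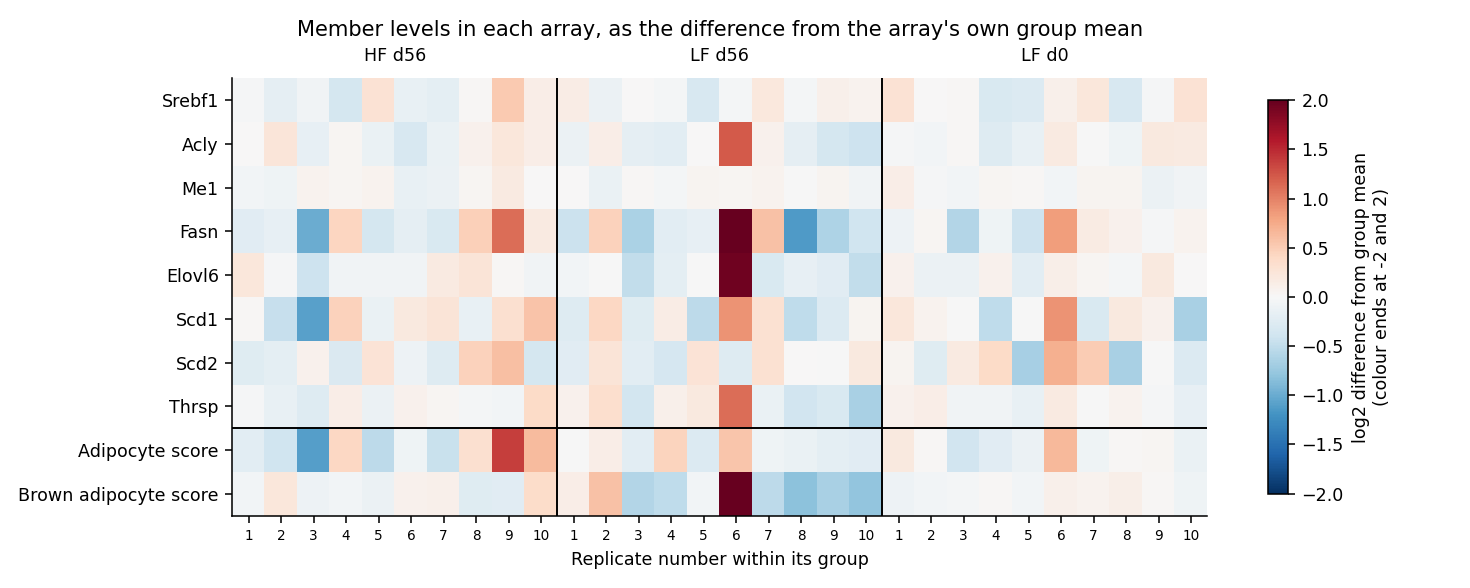
Difference of each array's log2 level from its own group mean, for the 8 genes and for the adipocyte and brown adipocyte scores, in HF d56, LF d56 and LF d0 (columns are replicate numbers). LF d56 replicate 6 is high in Acly, Fasn, Elovl6, Scd1, Thrsp and the brown adipocyte score, and HF d56 replicate 3 is low in Fasn, Scd1 and the adipocyte score.

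In HF d56 and LF d0, the ends of the Fasn range came with the ends of the adipocyte score. In LF d56 only the upper end did. Its lowest Fasn level, 49.7 in replicate 8, came with a score of 6.46, while the lowest score was 6.31 in replicate 5. HF d56 replicate 9 had the highest score of all arrays (8.59) and the highest HF d56 level of Fasn (119.9), Srebf1 (362), Scd2 (32.3) and Me1 (2052). Thrsp in that array (136.6) was below the HF d56 median (139). HF d56 replicate 3 had the lowest HF d56 score (6.10) and the lowest level of Fasn (27.9), Scd1 (476.3), Elovl6 (2.5) and Thrsp (119.3) in its group. LF d0 replicate 6 had the highest LF d0 score (6.76) with the highest LF d0 level of Fasn (178.2), Scd1 (1897.6), Scd2 (63.1) and Thrsp (212.9). These are single muscles and are given as a description.

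The genes fell into sets that varied together from muscle to muscle and others that did not. After group and array set means were taken off, Fasn correlated across the 30 arrays with Acly at r = 0.86, with Elovl6 at 0.84 and with Thrsp at 0.81. Without LF d56 replicate 6 these were 0.65, 0.60 and 0.62. Scd1 correlated with Fasn at 0.73 and with Thrsp at 0.69, or at 0.65 and 0.58 without LF d56 replicate 6. Scd2 and Srebf1 correlated with each other at 0.42 and with Fasn at 0.15 each. Me1 correlated with Scd2 at 0.53 and with Srebf1 at 0.45. The arrays share labelling and scanning steps and the cell makeup of each muscle piece, so these values describe the arrays and carry no test.

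Among the 6595 named entries above 20 on 5 or more arrays, those closest to each gene were sought over the same 30 arrays. For Scd1 they were Cidec (r = 0.88), which encodes a lipid droplet protein of fat cells, Cdo1 (0.87), a cysteine dioxygenase, and Gnai1 (0.86), an inhibitory G protein subunit. For Fasn and Acly they were each other and Tkt (0.85 and 0.82), the transketolase of the pentose phosphate pathway, followed by Thrsp (0.81) for Fasn and, for Acly, by Idh3b (0.82), a subunit of mitochondrial isocitrate dehydrogenase. For Thrsp they were Pck1 (0.82), the phosphoenolpyruvate carboxykinase of liver and fat, then Fasn and Acly (0.80). With LF d56 replicate 6 left out, Fasn correlated with Tkt at 0.68, Acly with Tkt at 0.55 and with Idh3b at 0.47, and Thrsp with Pck1 at 0.69 and with Acly at 0.57. The correlation of Scd1 with Cidec was moved less, at 0.86.

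The closest entries of the other 3 genes held no member of the set. For Scd2 they were the mitotic kinase Aurka (0.77), the glycosyltransferase B3galnt2 (0.75) and the calcium sensor Stim2 (0.73). For Srebf1 they were Fam78a (0.68), Dis3l (0.68) and Trappc11 (0.67). For Me1 they were Lrrc20 (0.76), Emc1 (0.75) and Lancl1 (0.75). With LF d56 replicate 6 left out, the highest of these were at 0.77 for Scd2, 0.69 for Srebf1 and 0.82 (Lancl1) for Me1. Cidec, the closest to Scd1, is also 1 of the 6 adipocyte markers.

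In 4 of the 5 lists of other pathway genes, 0 genes passed. Of 11 measured regulators of lipogenesis, among them Scap, Insig1, Mlxipl and Nr1h3, 0 passed in each of the 3 comparisons. Of 9 genes for acetyl-CoA and NADPH supply, 8 for malonyl-CoA turnover and carboxylase control, and 5 for mitochondrial fatty acid synthesis, 0 passed likewise. Without adjustment, at most 3 genes of any of these lists had a p below 0.05 in a comparison, where 5.1% (HF d56 versus LF d56), 10.1% (LF d56 versus LF d0) and 11% (HF d56 versus LF d0) of all entries did. The highest of these counts was 3 of the 11 regulators, all lower, in HF d56 versus LF d0. The medians of these 4 lists lay between -0.04 and 0.09 in log2 difference over the 3 comparisons, against 0.0009 to 0.0029 for all entries.

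Among 15 elongation and desaturation partners, Hacd1 and Fads3 passed. Hacd1 did so in both comparisons with LF d0, and Fads3 in HF d56 versus LF d0. Of all entries, 1.59% passed in HF d56 versus LF d0 and 0.85% in LF d56 versus LF d0. Hacd1 encodes a dehydratase of the fatty acid elongation cycle that is abundant in muscle. Its intensity was 1115.5, 1498.15 and 1699.6 in HF d56, 1390.2, 1614.95 and 1872.8 in LF d56, and 1894.8, 2138.1 and 2404.5 in LF d0. Every array of either later group lay below every LF d0 array. How many of all entries lay apart in this way was not counted. HF d56 was lower than LF d0 by -0.58 ± 0.07 and LF d56 was lower than LF d0 by -0.43 ± 0.07 (limma adjusted p = 1.47e-06 and 0.000443). Within the 9 arrays these 2 differences were -0.55 and -0.36 and did not pass (adjusted p of 0.215 and 0.398). Hacd1 was lower over the feeding period on either diet, as was Scd2, while between the diets it differed by -0.15 ± 0.07 (adjusted p = 0.941). With the fibroblast and tendon score as a covariate Hacd1 differed by -0.39 in LF d56 versus LF d0 (adjusted p = 0.249), and with the endothelial score by -0.38 (adjusted p = 0.0504).

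Fads3, a member of the fatty acid desaturase family, was the 1 partner that rose. Its intensity was 7.6, 8.95 and 15.8 in HF d56, 5.7, 8.15 and 9 in LF d56, and 5.9, 6.9 and 8.5 in LF d0, so it was dim throughout and the groups overlapped. HF d56 was higher than LF d0 by 0.45 ± 0.11 (adjusted p = 0.0252), with 10 of 10 arrays above the LF d0 mean, in a comparison where 129 entries were higher (0.783%). The call was lost without LF d0 replicate 5, LF d0 replicate 7 or HF d56 replicate 6 (differences of 0.42 each). It was also lost within the 21 and the 9 arrays, at 0.55 and 0.22 (adjusted p of 0.0597 and 0.741). With the adipocyte score as a covariate the difference was 0.01 (adjusted p = 0.994).

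The partners of lowest p that did not pass were these. In HF d56 versus LF d56, Fads3 differed by 0.32, the dehydratase Hacd2 by 0.32 and Mlycd, which breaks down malonyl-CoA, by 0.17 (adjusted p of 0.658, 0.812 and 0.941). In LF d56 versus LF d0, the desaturase Fads1 differed by -0.41 and Mid1ip1, a relative of Thrsp that helps carboxylase to polymerize, by 0.30 (adjusted p of 0.121 and 0.193). With the array set as a block, the Fads1 difference passed (adjusted p = 0.0224). Relative to LF d0, Mlycd in HF d56 differed by 0.25 (adjusted p = 0.0913), which passed without LF d0 replicate 3 or LF d0 replicate 8, at 0.29 and 0.28.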

How the data were processed

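The authors made the deposited intensities with GCRMA, per the submitters' processing notes, whose version is not given in the sources used here. There is 1 linear intensity for each gene in each array, from 1.2 to 30599 in steps of 0.1, and array medians were 8.9 to 9.4. Of 16539 entries, 64 controls were left out. Entries carry a gene number, and 15780 have 1 symbol in the platform annotation. The log2 of each intensity (pseudocount 0) went into limma 3.58.1 (R 4.3.3), using lmFit and then eBayes. Group was the factor, 30 arrays shared the fit, and the degrees of freedom were 27 (residual) and 3.97 (prior). Two-sided p-values were adjusted by Benjamini-Hochberg over 16475 entries. Slopes and covariate fits added a marker score. The script was tested on simulated data. For arrays, their number limits the precision. Groups came from the labels. Replicate numbers did not pair arrays (median r of same-numbered deviations -0.105, range -0.535 to 0.57). All 8 measured genes were named, and from the pathway lists those that passed in a comparison and, where fewer than 3 did, those of the 3 lowest p. The genes and lists were chosen with earlier results of these data known. Promoters are RefSeq's (GRCm38.p6). Figures were drawn with matplotlib 3.10.9.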

Additional observations from a re-analysis of the deposited data

Results flagged for a closer look

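Within groups of 10, 24 sets of values (8 genes in 3 groups) were examined for an array far from the others, and 5 were found. Chance gives about 1 in 20 for a single set. The sets are not independent, because Fasn, Acly and Elovl6 varied together and were flagged in the same muscle. The 5 were therefore not tested against that rate. In LF d56 replicate 6, Fasn was at 642.1 (next highest 163.9), Acly at 220 (next 103.5) and Elovl6 at 16.8 (next 4.3). In LF d0 replicate 6, Fasn was at 178.2 (next 111.6). In HF d56 replicate 3, Elovl6 was at 2.5 (next lowest 3.2), a level near background. The first of these muscles also held the brown fat markers Ucp1 and Cidea at 228.5 and 204.1.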

How the results depend on the processing

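The alternatives with the brown adipocyte, fibroblast and tendon, or endothelial score, with LF d56 replicate 6 or HF d56 replicates 9 and 10 left out under the adipocyte score, and with the score of 3 markers were chosen after seeing the data. With each array left out in turn, Scd2 and Srebf1 stayed lower in HF d56 than in LF d0 in all 30 fits, and 2 to 4 genes passed, 4 of them without LF d56 replicate 6. In LF d56 versus LF d0 0 to 1 gene passed, in HF d56 versus LF d56 0 in every fit, for the adipocyte slope 1 to 2, and between the array sets 0 to 1. The brown adipocyte slope passed for 4 genes, and for 1 without LF d56 replicate 6. The Scd2 call in LF d56 versus LF d0 was the least stable: 0 genes passed there with quantile normalization, median centring, the replicate block (Scd2 -0.62, adjusted p = 0.119), only the 21 or only the 9 arrays, only the 2 groups compared, or the neutrophil, fibroblast and tendon, or endothelial score as a covariate. The same count was 0 with the adipocyte score when LF d56 replicate 6 or HF d56 replicates 9 and 10 were left out, and with the score of Adipoq, Cidec and Fabp4. It was 2 with the adipocyte and brown adipocyte scores together, the 2 being Fasn at -0.67 and Thrsp at -0.41 (adjusted p of 0.0411 and 0.00265). The replicate block changed no other call of these 8 genes. In HF d56 versus LF d0 the count of 2 became 0 within the 21 and within the 9 arrays, where fewer arrays were fitted. It became 1 with the fibroblast and tendon or the endothelial score. It became 4 with the adipocyte score, alone, with the brown adipocyte score, or without LF d56 replicate 6, with the score of Adipoq, Cidec and Fabp4, and with only the 2 groups compared. With the score of Adipoq, Cidec and Fabp4, Scd1 was among the 4 and Srebf1 was not (adjusted p = 0.0608). In HF d56 versus LF d56 the count of 0 became 1 (Fasn) in all 5 fits with an adipocyte score. Between the array sets 1 gene, Me1, passed with 10 added to the intensity and with quantile normalization. The cause of these changes was not tested.

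Differences that changed sign had not passed the test. Scd1 in HF d56 versus LF d0 was 0.0020 with array weights, 0.080 in the 21 arrays, and 0.057, 0.23 and 0.10 with the Schwann cell, fibroblast and tendon, and endothelial scores, and -0.086 to 0.11 with 1 array left out. In LF d56 versus LF d0, Acly was -0.063 and Elovl6 -0.059 in the 9 arrays. With the adipocyte score, Scd1 there was -0.21 and Fasn -0.36. With the brown adipocyte score added, Scd1 was -0.30, Fasn -0.67, Acly -0.16 and Elovl6 -0.14. Without LF d56 replicate 6, Scd1 was -0.24, Fasn -0.49 and Acly -0.067. Without HF d56 replicates 9 and 10, Scd1 was -0.35, Fasn -0.51, Acly -0.042 and Elovl6 -0.020. With the score of Adipoq, Cidec and Fabp4, Scd1 was -0.34, Fasn -0.51 and Acly -0.040. Fasn there was -0.14 to 0.27 with 1 array left out. Without the 2 arrays farthest from the median score, the adipocyte slopes of Scd2, Srebf1 and Me1 were -0.0029, -0.0253 and -0.0147. With 1 array left out, the slope of Scd2 was as low as -0.068 and as high as 0.17, and that of Me1 -0.0051 and 0.072.

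Counts over all entries also moved. Between the diets the 4 became 7 with a trended prior or 10 added to the intensity, 12 with the slow fibre score, 15 at a threshold of 0.10 and 8 among brighter entries. It became 1 with the replicate block, 2 with the fibroblast and tendon or the endothelial score and 0 within either array set or with only the 2 groups compared. Leaving out 1 array gave 2 to 15. In LF d56 versus LF d0 the 140 became 214 with the array set as a block, 47 and 11 within the sets, and 11 to 92 with the scores that moved it by over 1.5 times. In the HF d56 muscles relative to LF d0 the 262 became 134 and 0 within the sets and 49 to 96 with such scores. Elovl6 and Fads3 are too dim for their differences to be read closely. Scd2 was dim in most HF d56 arrays (median 19.15), which limits how closely the size of its difference can be read. The number of mice limits the rest.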
